A study of Saccharomyces cerevisiae with 12 samples.

Results

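The middle and late sporulation genes of budding yeast (Saccharomyces cerevisiae) were followed in 12 RNA sequencing libraries. They comprise NDT80 (YHR124W), the gene of the transcription factor that switches on the middle phase of meiosis, and genes of the prospore membrane and the spore wall. The members were listed by gene name with earlier results of these data known, and all 42 were found among the 7127 features of the count table. The libraries came from cells in exponential growth of a mutant labelled Rpd3_2SA in glucose, WT in glucose, Rpd3_2SA in sucrose and WT in sucrose, with 3 biological replicates in each group. Glucose was given as YPD, a rich medium, and every library was labelled with strain BY4741, a haploid laboratory strain of mating type a. What 2SA changes in the protein is not stated in the labels, and neither is the number of mutant clones grown. RPD3 encodes a histone deacetylase, and the title of the series names its phosphorylation as the subject.

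Diploid yeast cells that lack nitrogen and a fermentable sugar leave the mitotic cycle, pass through meiosis and enclose each nucleus in a spore. Early meiotic genes come first, then Ndt80 binds a sequence called the middle sporulation element (MSE) before the middle genes, and late genes follow as the spore wall is completed. In growing cells the program is kept off. Ume6 brings Sin3 and Rpd3 to early genes through a site called URS1, and Sum1, with Rfm1 and the histone deacetylase Hst1, occupies many MSEs. A haploid culture in exponential growth is not a sporulating culture, so the levels below are those of genes outside the program in which they act.

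Promoters are shown for NDT80 and for 3 members whose values the comparisons turn on: MPC54 (YOR177C) and DTR1 (YBR180W), which were called lower in the mutant once library pairs were taken into account, and MIP6 (YHR015W), which had the largest fold change of the 41 tested members in both comparisons of genotype. Each is the 300 bases before the start codon in the R64 genome, 5′ to 3′ on the strand of the gene. The window lies at chrVIII:356261-356560 on the plus strand for NDT80, at chrXV:667180-667479 on the minus strand for MPC54, at chrII:589441-589740 on the plus strand for DTR1 and at chrVIII:134254-134553 on the plus strand for MIP6. Capitals mark a full MSE (GNCACAAAA, GNCACAAAT, GNCGCAAAA or GNCGCAAAT), an MSE core (CACAAA) or a URS1 core (GGCGGC), on either strand.
NDT80: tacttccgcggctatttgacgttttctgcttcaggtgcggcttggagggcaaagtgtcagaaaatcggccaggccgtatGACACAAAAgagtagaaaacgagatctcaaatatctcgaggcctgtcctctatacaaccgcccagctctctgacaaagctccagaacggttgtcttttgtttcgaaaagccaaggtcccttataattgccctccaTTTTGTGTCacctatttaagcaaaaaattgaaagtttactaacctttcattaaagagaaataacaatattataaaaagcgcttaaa
MPC54: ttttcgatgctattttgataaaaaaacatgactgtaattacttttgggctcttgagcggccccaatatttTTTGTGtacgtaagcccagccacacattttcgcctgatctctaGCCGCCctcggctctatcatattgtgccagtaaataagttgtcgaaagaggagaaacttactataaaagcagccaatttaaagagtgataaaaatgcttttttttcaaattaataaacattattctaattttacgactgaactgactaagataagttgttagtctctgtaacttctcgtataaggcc
DTR1: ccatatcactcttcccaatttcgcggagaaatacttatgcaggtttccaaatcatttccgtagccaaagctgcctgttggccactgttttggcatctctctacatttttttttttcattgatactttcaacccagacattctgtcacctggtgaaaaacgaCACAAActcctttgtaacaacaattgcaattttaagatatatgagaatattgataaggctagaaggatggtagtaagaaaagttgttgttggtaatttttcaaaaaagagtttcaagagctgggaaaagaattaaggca
MIP6: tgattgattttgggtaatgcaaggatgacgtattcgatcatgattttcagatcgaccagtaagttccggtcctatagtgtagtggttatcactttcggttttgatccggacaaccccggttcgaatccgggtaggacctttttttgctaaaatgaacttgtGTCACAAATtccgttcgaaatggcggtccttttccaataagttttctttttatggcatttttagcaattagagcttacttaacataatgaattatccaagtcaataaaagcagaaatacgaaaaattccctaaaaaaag
In NDT80 a full MSE lies 213 to 221 bases before the start codon and another, read on the opposite strand, lies 78 to 86 bases before it. MIP6 has 1 full MSE, 131 to 139 bases before the start codon. DTR1 has the core only, at 134 to 139 bases. MPC54 has the core on the opposite strand at 225 to 230 bases and a URS1 core on the opposite strand at 182 to 187 bases.

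A full MSE was found in 24 of the 42 member promoters (57.1%), against 320 of 5988 promoters of all protein-coding genes with the same window (5.34%). The MSE core, which lies within those full MSEs that begin GNCACAAA, was found in 36 members (85.7%), against 19.2% of all promoters. The URS1 core was found in 4 members (9.52%), namely ADY3, DON1, MPC54 and SMK1, against 5.19% of all promoters. These matches describe the letters of the window only. Among tested members the median log2 fold change of 2SA over WT in glucose was -0.42 for the 23 with a full MSE and -0.27 for the 18 without one. In sucrose these medians were -0.63 with a full MSE and -0.48 without one. Without the libraries numbered 1 they were -0.23 and 0.02 in glucose, over 23 members with a full MSE and 17 without one. The sucrose values were then -0.35 and -0.25. With all libraries, tested protein-coding features had a glucose median of -0.03 with a full MSE and 0.01 without one. Their sucrose medians were -0.03 and 0.0. For the 4 members with a URS1 core the glucose median was -0.25, against -0.42 for the 37 without one. For sucrose it was -0.27, against -0.62. Leaving out the libraries numbered 1 gave -0.12 against -0.1 for glucose, and -0.11 against -0.35 for sucrose.

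Library totals ran between 20775911 and 25360037 counts, and 6085 features passed the filter on low counts. Levels are given in CPM, the count of a gene scaled to the TMM-adjusted library total. RPD3 itself had 101 to 125 CPM in 2SA and 90.7 to 136 CPM in WT in glucose, and 104 to 135 CPM in 2SA and 103 to 133 CPM in WT in sucrose, and a count cannot show an altered protein. Markers of haploid cells summed to 641 to 889 CPM over the 12 libraries. Of the markers of mating type alpha, MF(ALPHA)1, the main alpha-factor gene, had 0 to 7 counts in each library. MF(ALPHA)2 had 84 to 152 counts, and SAG1, the alpha-agglutinin gene, had 873 to 1755. STE3, the receptor gene of alpha cells, had 73 counts in the WT glucose library numbered 1 and 110 in the WT sucrose library numbered 1, against 0 to 6 in the other libraries. In the WT glucose and sucrose libraries numbered 1, SAG1 had 941 and 1033 counts, against 873 to 1344 in the other WT libraries. MF(ALPHA)2 had 113 and 98 there, against 84 to 139, and MF(ALPHA)1 had 4 and 7, against 0 to 3.

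The WT libraries numbered 1 stood apart for the sporulation genes in both sugars. A total of 10 of the 41 tested members were more than 2-fold above both other WT libraries of the same sugar in glucose and in sucrose alike, on the log2(CPM + 0.2) scale. Of all tested features, 56 did so (0.92%). The 10 members were CDA1, DIT1, IRC18, LOH1, MIP6, OSW2, PES4, SPR28, SSP1 and YSW1. The corresponding count was 0 members for every other library number of either genotype, where 0.0% to 0.131% of all features did so. Comparisons of 2SA with WT are therefore given with all libraries and without those numbered 1, and the STE3 counts above move with this difference between libraries. Its part in the results was not tested. In the same libraries BNA1, a gene of NAD synthesis, had 140 CPM in glucose and 214 CPM in sucrose, against 37.9 to 52.0 CPM in the other WT libraries.

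**Figure D1:**
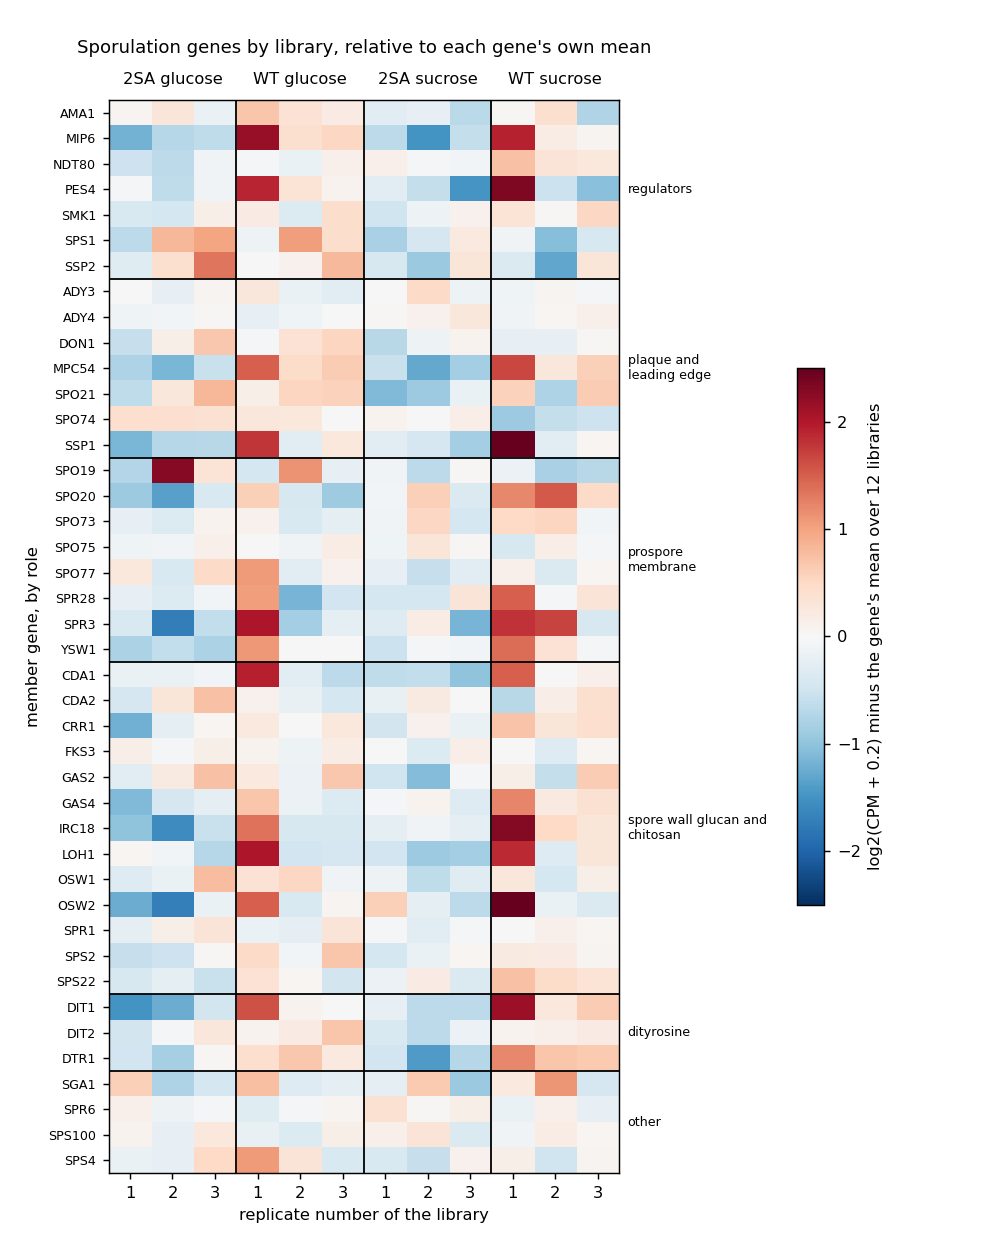
Level of all 42 members in each of the 12 libraries, as log2(CPM + 0.2) minus the mean of the gene over the 12 libraries, with genes grouped by role and 2SA groups left of WT groups for each sugar. The WT libraries numbered 1 are the reddest columns in both sugars, mainly for the 10 members named in the text.

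Most members were weakly expressed. Means over the 12 libraries ran between 0.209 and 70.8 CPM, with 9 members under 1 CPM, 23 at 1 to 10 CPM and 10 at 10 CPM or more. No member had 0 counts in any library, and only CDA2, with 1 to 10 counts, failed the filter. Divided by feature length, the median member had 2.14 CPM per kb, against 53.4 CPM per kb for all tested features. A total of 31 members lay under the 10th percentile of tested features, and 1, DON1, lay above the median.

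The order per length over the 12 libraries was led by DON1 (YDR273W, 64.5 CPM per kb), SPR6 (25.6), ADY3 (21.5), GAS2 (21.3), SPO75 (17.4) and NDT80 (13.4). DON1, whose product sits at the leading edge of the prospore membrane, averaged 70.0 ± 28.8 CPM per kb in 2SA and 77.1 ± 15.2 in WT in glucose, and 53.8 ± 14.0 in 2SA and 57.0 ± 5.61 in WT in sucrose (SD, n = 3 each). In every group its mean was above those of all other members. Before division by length DON1 had 45.9, 75.4 and 109 CPM in 2SA in glucose (libraries 1, 2 and 3), against 66.7, 87.5 and 99.7 CPM in WT. Sucrose gave 42.3, 62.5 and 72.5 CPM in 2SA, against 59.1, 59.0 and 69.7 CPM in WT. The genotypes overlapped in both sugars.

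SPR6, a sporulation gene of unknown function, averaged 25.2 ± 2.39 CPM per kb in 2SA and 24.1 ± 3.20 in WT in glucose, and 29.0 ± 3.74 in 2SA and 24.0 ± 3.09 in WT in sucrose. Its libraries had 13.3 to 16.0 CPM in 2SA and 11.9 to 15.4 CPM in WT in glucose, and 14.9 to 19.1 CPM in 2SA and 12.6 to 15.9 CPM in WT in sucrose. ADY3, a second leading edge component, averaged 20.8 ± 2.03 CPM per kb in 2SA and 20.9 ± 4.37 in WT in glucose, and 23.5 ± 5.39 in 2SA and 20.9 ± 1.21 in WT in sucrose. The values of SPR6 and ADY3 overlapped between genotypes in both sugars. ADY3 had 50.9, 44.1 and 53.4 CPM in 2SA in glucose, against 61.5, 44.9 and 42.3 CPM in WT, and 50.3, 70.4 and 46.6 CPM in 2SA in sucrose, against 47.1, 52.8 and 49.1 CPM in WT. It is the only member within 30 kb of a chromosome end, at 26.4 kb.

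SPO75, which is needed for spore formation, averaged 17.2 ± 1.46 CPM per kb in 2SA and 17.7 ± 1.79 in WT in glucose, and 18.4 ± 2.66 in 2SA and 16.5 ± 3.17 in WT in sucrose. Its libraries had 42.1, 43.2 and 49.2 CPM in 2SA in glucose, against 45.0, 42.3 and 51.3 CPM in WT, and 42.1, 55.6 and 46.1 CPM in 2SA in sucrose, against 34.2, 50.6 and 43.9 CPM in WT. The genotypes overlapped in both sugars. NDT80 lay below SPO75 beyond the spread in 3 groups, with 9.78 ± 2.08 CPM per kb in 2SA and 12.8 ± 1.32 in WT in glucose and 13.1 ± 0.986 in 2SA in sucrose. In WT in sucrose NDT80 averaged 17.9 ± 3.21 CPM per kb and did not differ from SPO75 beyond the spread.

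**Figure D2:**
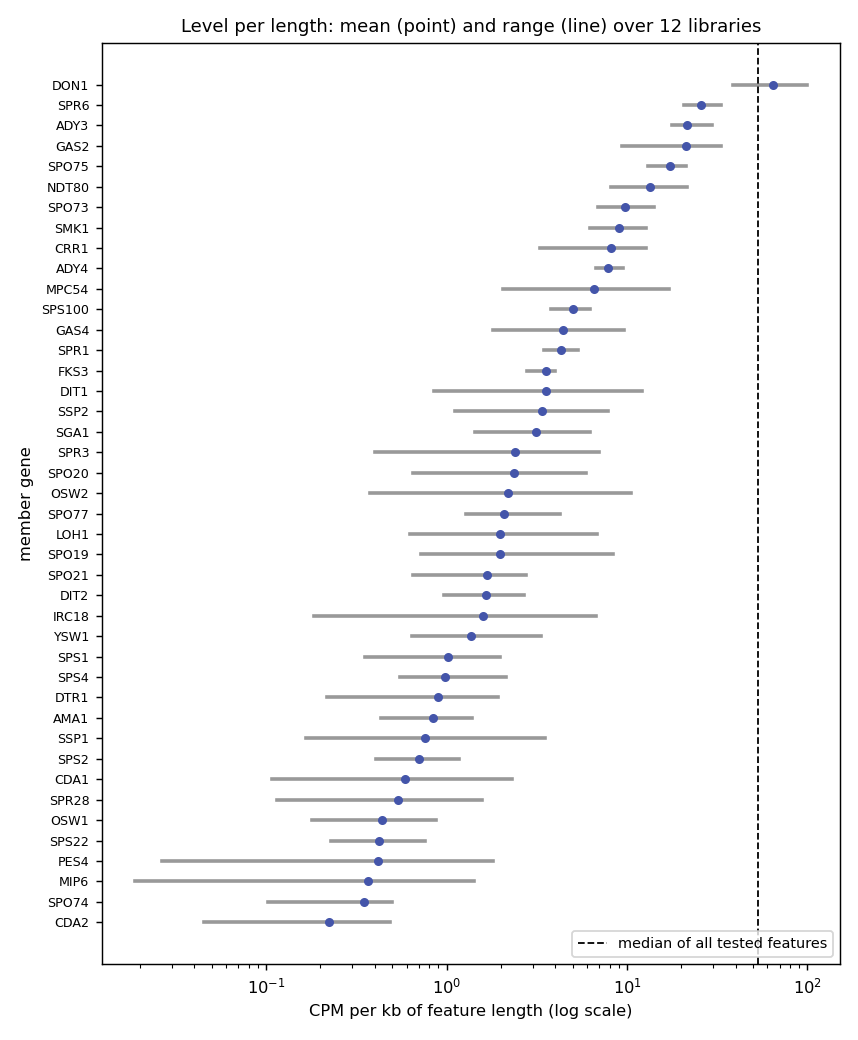
Level per kb of feature length (log axis) of the 42 members, as the mean (point) and range (line) over the 12 libraries, with the median of all tested features as a dashed line. DON1 lies above that line at 64.5 CPM per kb and the other members lie below it.

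The comparison of 2SA with WT asks how the RPD3 mutation moved these genes in each sugar. Values leaned towards lower levels in the mutant, and less so without the libraries numbered 1 (member medians of -0.1 in glucose and -0.33 in sucrose). MPC54 was the member called lower in both sugars once library pairs were fitted, a call that was lost without the libraries numbered 2. A feature was called where the adjusted p was under 0.05 and the fold over 1.5. With 1 mean per group and no term for library pairs, edgeR called 0 of 41 members in glucose, where it called 0.0493% of all features lower and 0.0329% higher. It also called 0 members in sucrose, where the shares of all features were 0.0493% lower and 0.0164% higher. At an unadjusted edgeR p under 0.05, 8 members were lower and 0 higher in glucose (2.15% and 0.657% of all features), and 13 were lower and 1 higher in sucrose (2.79% and 1.18%). DESeq2 called MPC54 lower in glucose (0.376% of features were called lower and 0.0751% higher) and MPC54 and DTR1 lower in sucrose (0.575% lower and 0.160% higher).

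Libraries with the same number deviated together within a sugar, so a term for each 2SA and WT pair was also fitted. With that block within carbon source edgeR called MPC54 lower in glucose (0.362% of all features were called lower and 0.115% higher) and MPC54 and DTR1 lower in sucrose (1.61% lower and 0.230% higher). Without the libraries numbered 1 the same fit called MPC54 lower in glucose (0.888% of features were lower and 0.181% higher) and MPC54, DTR1, DIT1, SPR3 and GAS2 lower in sucrose (2.07% lower and 0.394% higher). Without those numbered 2 it called 0 members in either sugar, where it called 0.131% of features lower and 0.0328% higher in glucose and 0.213% lower and 0.0328% higher in sucrose. Without the block, edgeR called 0 members in either sugar when the libraries numbered 1 were left out. The shares of all features were then 0.0% in each direction in glucose, and 0.0164% lower and 0.0% higher in sucrose.

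Over all libraries 31 of 41 members had a log2 fold change below 0 in glucose, against 47.4% of all features, with a median of -0.39 for members and 0.01 for all features. In sucrose 31 of 41 were also below 0, against 50.6% of all features (49.4% were above 0), with a median of -0.57 for members and -0.00 for all features. Without the libraries numbered 1, 23 of 40 members were below 0 in glucose, against 2983 of 6071 features, with a median of -0.10 for members. In sucrose 30 of 40 members were below 0, against 3007 of 6071 features, with a median of -0.33 for members.

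By pairs of same-numbered libraries, the median member had a log2 ratio of 2SA over WT of -0.75, -0.25 and -0.06 in glucose for pairs 1, 2 and 3, with 36, 28 and 23 of 41 members below 0. In sucrose the medians were -0.66, -0.20 and -0.37, with 33, 32 and 30 of 41 below 0. Of all features, 46.4%, 47.8% and 49.5% were below 0 in the glucose pairs, and 48.9%, 48.8% and 49.4% in the sucrose pairs. The medians of all features in these pairs lay between 0.00 and 0.02. All 3 pairs were lower in the mutant for 18 members in glucose (15.6% of all features) and for 27 in sucrose (20.6%), and all 3 were higher for 3 members in glucose (18.4%) and 4 in sucrose (22.3%).

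**Figure D3:**
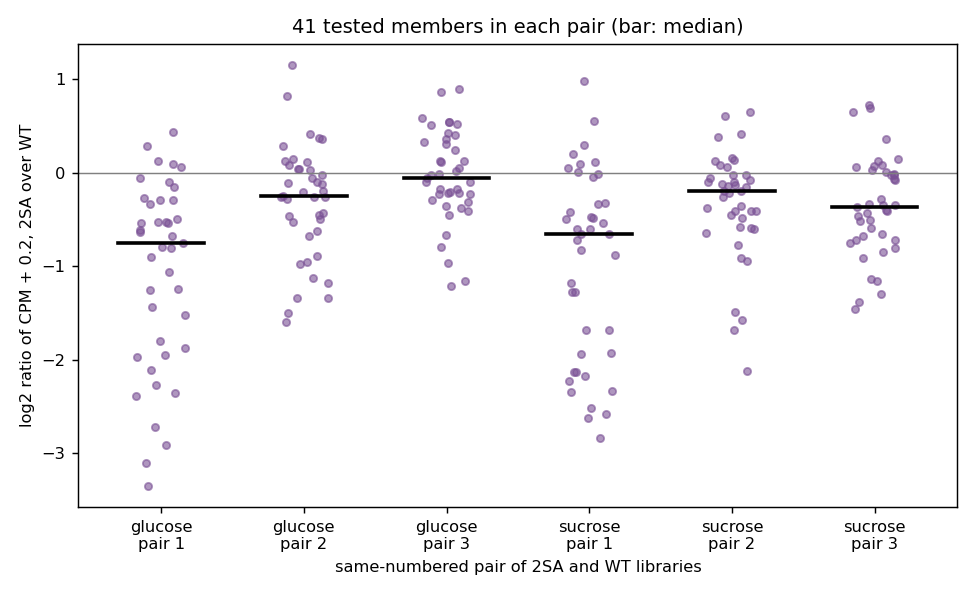
Log2 ratio of 2SA over WT, computed on CPM + 0.2, for each tested member (points) in each same-numbered pair of libraries, with the median as a bar. Medians lie below 0 in all 6 pairs and are lowest in pair 1 of each sugar, at -0.75 and -0.66.

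The 3 libraries of 2SA lay below the 3 of WT, with no overlap, for 8 members in glucose (3.75% of all features) and for 15 in sucrose (3.39%). The 8 were DIT1, DTR1, IRC18, MIP6, MPC54, PES4, SSP1 and YSW1. In sucrose 6 of these, DIT1, DTR1, IRC18, MIP6, MPC54 and SSP1, were again without overlap, together with CDA1, CRR1, DIT2, GAS4, LOH1, NDT80, SPR1, SPS2 and SPS22. Without the libraries numbered 1 the counts were 10 in glucose (11.8% of features) and 15 in sucrose (7.61%), with 3 members above WT in glucose (12.3%) and 2 in sucrose (7.72%). With all libraries SPO74 alone lay above WT without overlap, in both sugars (3.60% and 2.88% of features).

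Among the regulators, NDT80 had 17.0, 15.4 and 22.9 CPM in 2SA in glucose (libraries 1, 2 and 3), against 24.0, 21.8 and 26.8 CPM in WT. Sucrose gave 26.8, 23.7 and 23.5 CPM in 2SA, against 40.6, 30.8 and 29.6 CPM in WT. NDT80 overlapped between genotypes in glucose, where the highest 2SA library passed the lowest WT library, and did not overlap in sucrose. Its log2 fold change was -0.39 ± 0.18 in glucose (SE, edgeR adjusted p = 1) and -0.45 ± 0.18 in sucrose (adjusted p = 0.998). With the block within carbon source these were -0.41 ± 0.10 (adjusted p = 0.199) and -0.44 ± 0.10 (adjusted p = 0.0585), so NDT80 was not called in any of these fits.

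MIP6 encodes an RNA-binding protein and PES4 its paralog. MIP6 had 0.0949, 0.206 and 0.228 CPM in 2SA in glucose, against 2.82, 0.681 and 0.758 CPM in WT, and 0.223, 0.0374 and 0.243 CPM in 2SA in sucrose, against 2.33, 0.563 and 0.498 CPM in WT. The genotypes did not overlap in either sugar, and the libraries held 1 to 6 counts in 2SA and 11 to 62 in WT. The log2 fold change of MIP6 was -2.96 ± 0.86 in glucose with an edgeR adjusted p of 0.756, and -2.75 ± 0.86 in sucrose with 0.726, and -1.71 and -1.98 without the libraries numbered 1. With the block within carbon source the adjusted p was 0.130 in glucose and 0.0630 in sucrose. PES4 had log2 fold changes of -1.62 ± 1.05 and -2.37 ± 1.10 (adjusted p = 1 and 0.998), with 53 and 78 counts in the WT libraries numbered 1 and 1 to 14 in all others. Its values were -0.79 and -0.35 without the libraries numbered 1.

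None of the remaining regulators was called. SMK1, the mitogen-activated protein kinase of spore wall assembly, had log2 fold changes of -0.35 ± 0.26 in glucose and -0.46 ± 0.26 in sucrose. SSP2, which activates Smk1, had 0.29 ± 0.52 and 0.05 ± 0.53. SPS1, a kinase of spore formation, had 0.04 ± 0.52 and 0.23 ± 0.55, and 0.16 and 0.78 without the libraries numbered 1. AMA1, a meiotic activator of the anaphase-promoting complex that overlaps a feature on the opposite strand, had -0.39 ± 0.34 and -0.39 ± 0.34.

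The meiotic outer plaque is the spindle pole structure from which the prospore membrane grows, and its component MPC54 was lower in 2SA in every library of both sugars. MPC54 had 4.18, 3.21 and 4.87 CPM in 2SA in glucose, against 20.9, 10.1 and 11.5 CPM in WT. The sucrose libraries had 4.91, 2.88 and 3.94 CPM in 2SA, against 23.7, 8.93 and 11.1 CPM in WT. The highest 2SA library lay below the lowest WT library in both sugars, and WT library 1 was the highest of its group in each. The log2 fold change was -1.79 ± 0.41 in glucose (edgeR adjusted p = 0.284) and -1.90 ± 0.41 in sucrose (adjusted p = 0.230). With the block within carbon source MPC54 fell by 1.74 ± 0.23 on the log2 scale in glucose (edgeR adjusted p = 0.0146) and by 1.82 ± 0.23 in sucrose (adjusted p = 0.00543). In that fit without the libraries numbered 1 it fell by 1.44 ± 0.19 (adjusted p = 0.00472) and by 1.56 ± 0.19 (adjusted p = 0.00226). With the block and without those numbered 2 the call was lost, with MPC54 at -1.79 ± 0.32 and -1.90 ± 0.32 (adjusted p = 0.212 and 0.0977). Nor was MPC54 called without the block and without the libraries numbered 1, at -1.42 ± 0.30 and -1.56 ± 0.31 (edgeR adjusted p = 0.729 and 0.74).

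None of the other plaque components was called. SPO21, a second scaffold of the plaque, had log2 fold changes of -0.17 ± 0.46 in glucose and -1.03 ± 0.48 in sucrose, neither of them called by edgeR, and 0.02 and -0.64 without the libraries numbered 1. ADY4, a further plaque component, had 0.05 ± 0.14 and 0.11 ± 0.14. SPO74 (YGL170C), also of the plaque, had 0.617, 0.618 and 0.592 CPM in 2SA in glucose, against 0.545, 0.535 and 0.402 CPM in WT. The sucrose libraries had 0.446, 0.412 and 0.486 CPM in 2SA, against 0.127, 0.201 and 0.227 CPM in WT. The groups did not overlap, at 10 to 15 counts a library in 2SA and 3 to 12 in WT, and the log2 fold changes of 0.30 ± 0.28 and 1.25 ± 0.32 were not called (edgeR adjusted p = 1 and 0.507).

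Of the leading edge genes, DON1 and ADY3 had log2 fold changes between -0.14 and 0.17 in the 2 sugars. SSP1, which keeps the mouth of the growing membrane, had 0.285, 0.453 and 0.455 CPM in 2SA in glucose, against 3.45, 0.681 and 1.07 CPM in WT. Sucrose gave 0.670, 0.599 and 0.389 CPM in 2SA, against 6.02, 0.684 and 0.906 CPM in WT. The groups did not overlap, but the WT libraries numbered 1 were several times above all others. The log2 fold change of SSP1, -2.11 ± 0.89 in glucose, was -0.94 without the libraries numbered 1, and that of -2.17 ± 0.84 in sucrose was -0.66.

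**Figure D4:**
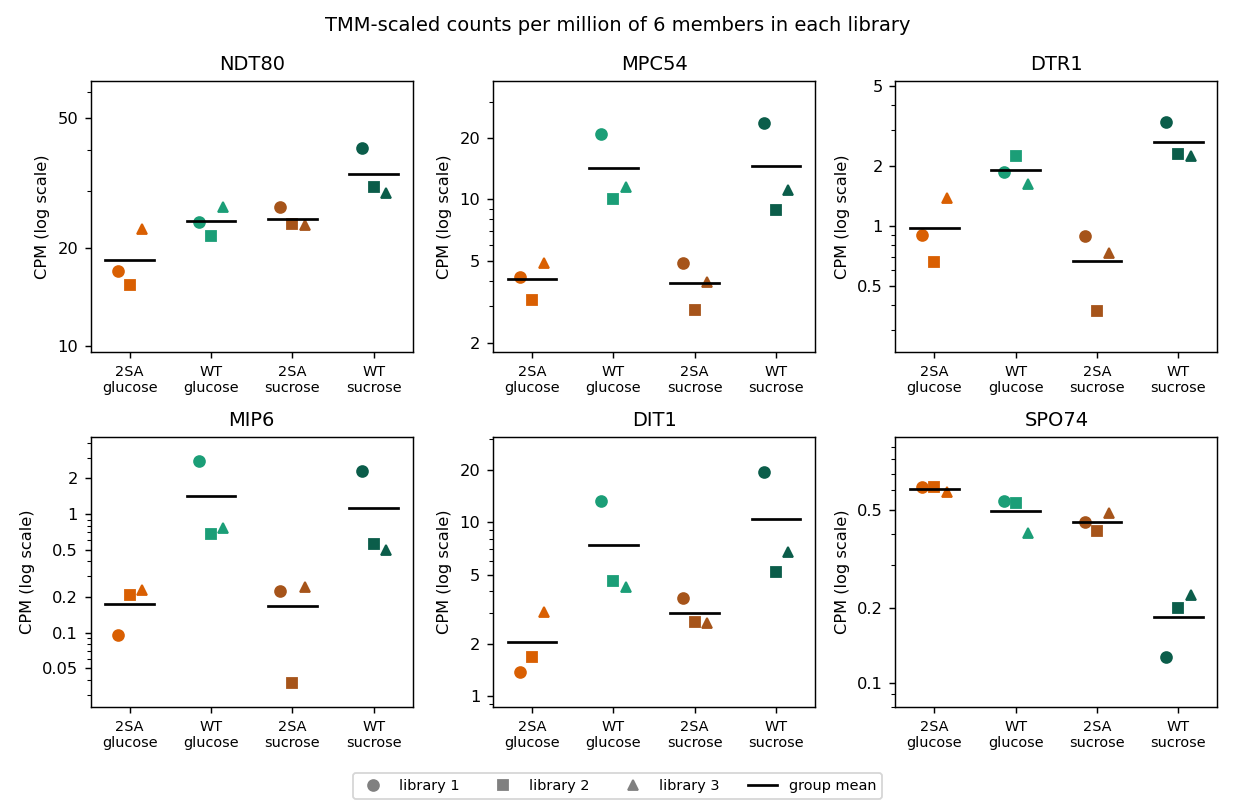
CPM (log axis) of NDT80, MPC54, DTR1, MIP6, DIT1 and SPO74 in each library, with 2SA left of WT for each sugar, the library number as the symbol and the group mean as a bar. For MPC54 all 2SA libraries lie at 4.91 CPM or less and all WT libraries at 8.93 CPM or more.

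Among genes of the prospore membrane, 0 of 8 were called without the block in either sugar. SPR3 and SPR28 encode septins of the prospore membrane. SPR3 had 1.90, 0.618 and 1.59 CPM in 2SA in glucose, against 10.8, 1.31 and 2.14 CPM in WT, and 1.97, 2.92 and 1.02 CPM in 2SA in sucrose, against 9.29, 8.56 and 1.86 CPM in WT. The genotypes overlapped in both sugars, while each 2SA library lay below the WT library of its number. The log2 fold change was -1.73 ± 0.81 in sucrose (edgeR adjusted p = 0.998), and -1.64 ± 0.38 with the block within carbon source (adjusted p = 0.0575). That fit without the libraries numbered 1 gave -1.33 ± 0.26 (adjusted p = 0.0255). In glucose SPR3 had -1.80, and -0.65 without the libraries numbered 1. SPR28 had -0.42 ± 0.73 in glucose and -1.14 ± 0.70 in sucrose, and 0.90 and -0.23 without the libraries numbered 1, so its direction in glucose depended on them.

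YSW1, a prospore membrane protein gene, had 1.19, 1.36 and 1.18 CPM in 2SA in glucose, against 4.86, 2.19 and 2.19 CPM in WT. In sucrose it had 1.45, 2.13 and 2.09 CPM in 2SA, against 6.11, 2.89 and 2.13 CPM in WT. The groups did not overlap in glucose and met at 2.13 CPM in sucrose. YSW1 had log2 fold changes of -1.30 ± 0.44 in glucose and -0.97 ± 0.42 in sucrose, with edgeR adjusted p of 1 and 0.998. These were -0.78 and -0.25 without the libraries numbered 1. SPO20, a SNARE of prospore membrane fusion, had -0.83 ± 0.49 and -1.08 ± 0.46, and -0.19 and -0.95 without those libraries. SPO73, SPO75 and SPO77, all genes of spore formation, lay between -0.33 and 0.16, and SPO77 in glucose had 0.18 without those libraries, against -0.27 with them. SPO19, a gene of a meiosis-specific membrane protein, had 0.93 ± 0.74 and 0.38 ± 0.81, with a single 2SA glucose library at 137 counts and the others at 11 to 50.

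The group of spore wall glucan and chitosan genes held 13 members, of which 12 were tested and 0 were called without the block. Their log2 fold changes were below 0 for 10 of 12 in glucose and 11 of 12 in sucrose, with medians of -0.64 and -0.72. Without the libraries numbered 1 they were below 0 for 6 of 11 and 10 of 11, with medians of -0.09 and -0.42. IRC18, which is adjacent to its paralog LOH1 and read in the other direction, had 0.285, 0.124 and 0.455 CPM in 2SA in glucose, against 2.27, 0.535 and 0.535 CPM in WT. Sucrose gave 0.632, 0.711 and 0.632 CPM in 2SA, against 4.54, 1.17 and 0.997 CPM in WT. The groups did not overlap in either sugar, where IRC18 had log2 fold changes of -1.95 ± 0.80 and -1.75 ± 0.71, with edgeR adjusted p of 1 and 0.998. IRC18 had -0.90 and -0.68 without the libraries numbered 1. LOH1 had -1.27 ± 0.81 and -1.98 ± 0.84, and 0.12 and -1.18 without those libraries.

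GAS2 and GAS4 are paralogous glucan-remodelling enzymes. GAS2 had 27.3, 38.9 and 55.0 CPM in 2SA in glucose, against 39.6, 30.2 and 53.0 CPM in WT, and 23.5, 15.6 and 32.0 CPM in 2SA in sucrose, against 37.0, 21.9 and 51.4 CPM in WT. The groups overlapped in both sugars, and in sucrose each 2SA library lay below the WT library of its number. The log2 fold change in sucrose was -0.63 ± 0.37 (edgeR adjusted p = 0.998), -0.61 ± 0.15 with the block within carbon source (adjusted p = 0.0689) and -0.59 ± 0.13 with the block and without the libraries numbered 1 (adjusted p = 0.0387), at the edge of the 1.5-fold threshold. GAS4 had 2.56, 4.24 and 4.87 CPM in 2SA in glucose, against 9.45, 5.20 and 4.51 CPM in WT. In sucrose it had 5.51, 6.14 and 4.52 CPM in 2SA, against 13.6, 6.71 and 7.57 CPM in WT. The groups overlapped in glucose and not in sucrose. GAS4 had log2 fold changes of -0.71 ± 0.37 in glucose and -0.79 ± 0.36 in sucrose, with edgeR adjusted p of 1 and 0.998, and -0.09 and -0.42 without the libraries numbered 1.

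SPS2 and SPS22 encode related wall proteins, and their sequences match at 80.2% over 111 bp. Whether any read of that stretch matched both genes is not given. SPS2 had 0.617, 0.659 and 1.05 CPM in 2SA in glucose, against 1.50, 0.973 and 1.78 CPM in WT, and 0.707, 0.898 and 1.07 CPM in 2SA in sucrose, against 1.23, 1.21 and 1.09 CPM in WT. SPS22 had 0.319 to 0.674 CPM in 2SA and 0.357 to 1.06 CPM in WT over both sugars. The genotypes overlapped in glucose for both genes and did not overlap in sucrose for either. The log2 fold changes were -0.87 ± 0.31 and -0.40 ± 0.31 for SPS2 and -0.56 ± 0.37 and -0.77 ± 0.34 for SPS22, none of them called. They were -0.70 and -0.23 for SPS2 and -0.27 and -0.58 for SPS22 without the libraries numbered 1.

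CDA1 and CDA2, neighbours on chromosome XII, encode the deacetylases that turn chitin into the chitosan layer. CDA1 had 2 to 8 counts in 2SA libraries and 46 and 35 counts in the WT libraries numbered 1, against 4 to 10 in the other WT libraries. CDA1 had log2 fold changes of -1.31 ± 0.84 in glucose and -2.25 ± 0.92 in sucrose, with edgeR adjusted p of 1 and 0.998. The glucose value was 0.54 when the WT library numbered 1 was left out. CDA2 had 2 to 10 counts in 2SA and 1 to 7 in WT and was not tested. OSW2, a gene of outer spore wall assembly, had log2 fold changes of -1.63 ± 0.90 and -1.56 ± 0.86, with 204 and 538 counts in the WT libraries numbered 1 and 20 to 132 in the others. Those of OSW2 were -0.67 and -0.19 without the libraries numbered 1.

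The remaining wall genes were CRR1, SPR1, FKS3 and OSW1. CRR1, a putative transglycosidase of the wall, had -0.57 ± 0.29 in glucose and -0.66 ± 0.29 in sucrose on the log2 scale, and -0.24 and -0.40 without the libraries numbered 1. SPR1, the sporulation-specific exo-glucanase, had 0.10 ± 0.21 and -0.17 ± 0.21. FKS3, a homolog of glucan synthase that overlaps a feature on the opposite strand, had 0.03 ± 0.17 and 0.04 ± 0.17. OSW1, a further gene of wall assembly, had -0.15 ± 0.50 and -0.62 ± 0.54 at 4 to 16 counts a library, and its glucose value was 0.18 without the libraries numbered 1.

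Dityrosine forms the outermost layer of the spore wall. DIT1 and DIT2 encode the enzymes that make its precursor and are transcribed away from each other on chromosome IV, and DTR1 encodes a transporter of that precursor. The 3 genes summed to 3.94, 4.61 and 7.33 CPM in 2SA in glucose, against 17.7, 9.53 and 9.77 CPM in WT, and to 6.32, 4.45 and 5.45 CPM in 2SA in sucrose, against 25.2, 10.1 and 11.7 CPM in WT. The sums did not overlap between genotypes in either sugar. The WT library numbered 1 was the highest in each.

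DTR1 had 0.902, 0.659 and 1.37 CPM in 2SA in glucose, against 1.86, 2.24 and 1.61 CPM in WT. In sucrose it had 0.893, 0.374 and 0.729 CPM in 2SA, against 3.31, 2.29 and 2.22 CPM in WT. The groups did not overlap in either sugar, at 10 to 30 counts a library in 2SA and 36 to 78 in WT. The log2 fold change was -0.96 ± 0.36 in glucose (edgeR adjusted p = 1) and -1.97 ± 0.37 in sucrose (adjusted p = 0.162). With the block within carbon source DTR1 fell by 2.00 ± 0.33 on the log2 scale in sucrose (edgeR adjusted p = 0.0184), and in glucose it had -0.98 ± 0.33 (adjusted p = 0.335). The difference between the sugars was not called (DTR1 interaction, edgeR adjusted p = 1). In sucrose the blocked value was -2.07 ± 0.42 without the libraries numbered 1 (adjusted p = 0.0302) and -1.75 without those numbered 2 (adjusted p = 0.161).

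DIT1 had 1.38, 1.69 and 3.05 CPM in 2SA in glucose, against 13.3, 4.57 and 4.24 CPM in WT, and 3.68, 2.66 and 2.63 CPM in 2SA in sucrose, against 19.4, 5.19 and 6.75 CPM in WT. The groups did not overlap in either sugar. DIT1 had log2 fold changes of -1.85 ± 0.59 and -1.80 ± 0.58, with edgeR adjusted p of 0.997 and 0.745, and -1.69 ± 0.48 and -1.61 ± 0.45 with the block within carbon source (adjusted p = 0.251 and 0.0946). Leaving out the libraries numbered 1 gave -0.90 and -1.17. With the block and without the libraries numbered 1, DIT1 had -1.16 ± 0.25 in sucrose (adjusted p = 0.0407). DIT2, which overlaps a feature on the opposite strand, had -0.42 ± 0.27 and -0.57 ± 0.27. Its 3 libraries of 2SA lay below those of WT in sucrose and overlapped them in glucose.

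None of the other members was called. SPS100, a spore wall protein gene, had log2 fold changes of 0.18 ± 0.24 and 0.00 ± 0.24. SPR6 had 0.06 ± 0.17 and 0.27 ± 0.17. SPS4, a gene induced in sporulation, had -0.44 ± 0.45 and -0.25 ± 0.46, and its glucose value was 0.22 without the libraries numbered 1. SGA1, the glucoamylase that breaks down glycogen in sporulating cells, had -0.25 ± 0.54 and -0.49 ± 0.54, with group SDs of 2.41 to 3.48 CPM at means of 4.43 to 6.47 CPM.

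**Figure D5:**
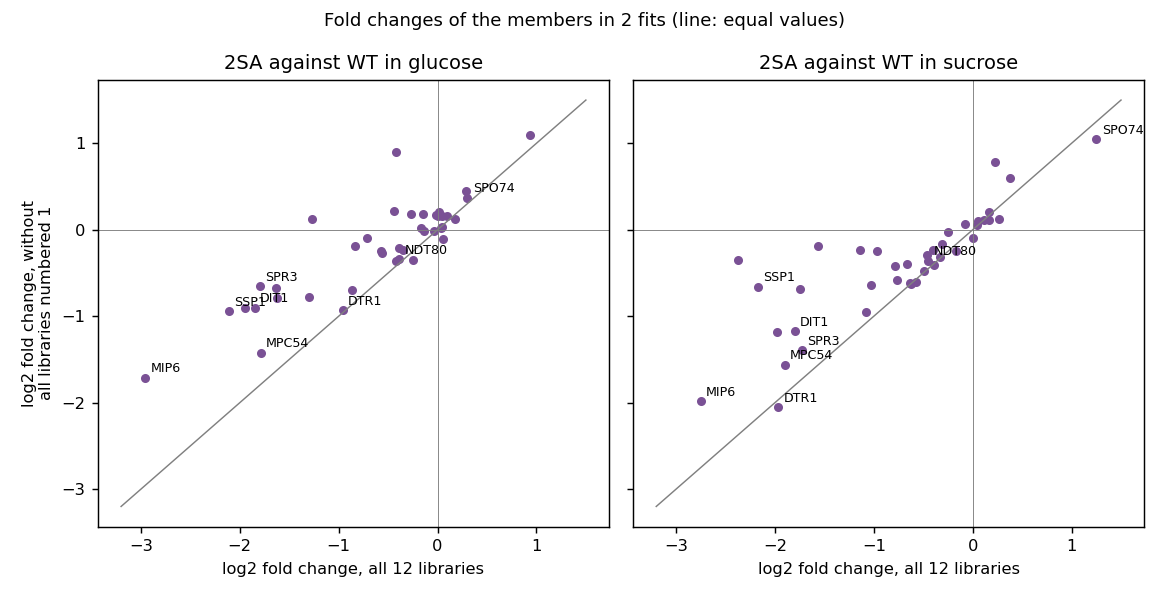
Log2 fold change of 2SA over WT for the members with all 12 libraries (x axis) and without the 4 libraries numbered 1 (y axis), in glucose and in sucrose, with a diagonal line at equal values. MPC54 moves to -1.42 in glucose and -1.56 in sucrose, DTR1 to -0.93 and -2.05, and SSP1 to -0.94 and -0.66.

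The comparison of sucrose with glucose asks whether the change of sugar moved these genes within a genotype. SPO74 in WT was the only member called by edgeR without a block. In 2SA, edgeR called 0 of 41 members (1.61% of all features were called higher and 0.279% lower). DESeq2 also called 0 members there (3.46% of features higher and 2.03% lower). At an unadjusted edgeR p under 0.05, NDT80 was higher in 2SA and 0 members were lower (10.9% and 7.18% of features). In WT, edgeR called 0 members higher, and DESeq2 called 0 of the 38 members with an adjusted p (5.73% of features higher and 3.32% lower). At an unadjusted edgeR p under 0.05, NDT80 and SPO20 were higher in WT and SPO74 was lower (852 and 609 of 6085 features). edgeR called 2.91% of features higher in WT and 1 member lower, SPO74 (0.526% of features). SPO74 fell by 1.39 ± 0.32 on the log2 scale in sucrose (edgeR adjusted p = 0.0456), at 3, 5 and 5 counts in sucrose against 12, 11 and 9 in glucose. It had -0.44 ± 0.28 in 2SA, and the difference between the genotypes was not called (interaction 0.95 ± 0.43, edgeR adjusted p = 1). The SPO74 call was lost when any single library other than WT sucrose library 3 was left out, with adjusted p of up to 0.151.

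NDT80 was the member with non-overlapping sugars in both genotypes in the direction of sucrose. Its log2 fold change of sucrose over glucose was 0.42 ± 0.18 in 2SA (edgeR adjusted p = 0.260) and 0.48 ± 0.18 in WT (adjusted p = 0.146), neither of them called. Sucrose libraries lay above glucose libraries without overlap for 5 members in 2SA (14.2% of all features), namely ADY4, IRC18, NDT80, SPO20 and YSW1, and for 2 in WT (14.2%), CRR1 and NDT80. They lay below for 3 in 2SA (13.0%), AMA1, CDA1 and SPO74, and for 1 in WT (12.1%), SPO74. The median member had a log2 fold change of -0.00 in 2SA and 0.04 in WT, against 0.02 and 0.04 for all features. The 10 stress genes summed to 7170 CPM in the 2SA sucrose library numbered 2 and 14600 CPM in that of WT, against 1500 to 4180 CPM in the other sucrose libraries. The sucrose libraries numbered 2 also had the lowest sums of ribosomal protein genes, 50000 CPM in 2SA and 35700 CPM in WT, against 91400 to 128000 CPM in the other sucrose libraries. Their part in these values was not tested.

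The interaction, which is the sucrose response in 2SA minus that in WT, was called for 0 of 41 members and 0 of 6085 features with edgeR (0.0% in each direction), and for 0 with DESeq2. At an unadjusted edgeR p under 0.05 it held 0 members (0.0986% of features higher and 0.0657% lower). The median member stood at -0.07, with 16 members above 0 and 25 below (46.8% and 53.2% of all features).

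Other genes of the pathway were taken from lists chosen by name. Of 23 further middle and late genes, 21 were tested and 0 were called in 2SA against WT in either sugar with edgeR, also with the block within carbon source. Their median log2 fold changes were 0.01 in glucose and -0.00 in sucrose, with 10 and 11 of 21 below 0. In these comparisons edgeR called 0.0164% to 0.0493% of all features in a direction without the block, and 0.115% to 1.61% with it. All 24 early meiotic genes were tested, with 0 called in 2SA against WT and medians of 0.05 and 0.09. In sucrose against glucose SPO16, a gene of meiotic crossing over, fell by 1.65 ± 0.28 on the log2 scale in 2SA and by 1.69 ± 0.28 in WT (edgeR adjusted p = 0.0212 and 0.0160). SPO16 without the libraries numbered 1 had -1.59 and -1.45 and neither call was kept (edgeR adjusted p = 0.354 and 0.261). Nor was either call kept without those numbered 2, at -1.64 and -1.89 (edgeR adjusted p = 0.197 and 0.123). The call in 2SA was also lost without any single 2SA library other than sucrose library 3, and that in WT without glucose library 3 or sucrose library 1.

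Of the 23 genes of entry into meiosis and of its repression, 22 were tested and 0 were called in any contrast. Over these contrasts edgeR without a block called 0.0% to 2.91% of all features in a direction. IME1, the master activator of meiosis, had log2 fold changes of 2SA over WT of -0.42 ± 0.18 in glucose and -0.38 ± 0.18 in sucrose, with edgeR adjusted p of 1 and 0.998, and adjusted p of 0.113 and 0.0592 with the block within carbon source. IME2, the meiotic kinase, had 0.05 ± 0.31 and 0.09 ± 0.31. SUM1, the MSE repressor, had -0.27 ± 0.18 and -0.20 ± 0.18, and its partners HST1 and RFM1 lay between -0.01 and 0.16. UME6 had 0.03 ± 0.21 and 0.09 ± 0.21.

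Markers of cell type moved as follows beside these differences. All 7 markers of a cells had log2 fold changes of 2SA over WT below 0 in both sugars, with medians of -0.39 and -0.55. None was called without the block, and BAR1 was called lower in sucrose with the block within carbon source (-0.88 ± 0.19, edgeR adjusted p = 0.0482). That call was lost without the libraries numbered 1 (-0.63, adjusted p = 0.0833) or 2 (-1.17, adjusted p = 0.0741). Their summed level was 440 to 663 CPM in 2SA and 655 to 725 CPM in WT in glucose, and 281 to 353 CPM in 2SA and 365 to 623 CPM in WT in sucrose. The 4 alpha markers summed to 55.3 to 66.7 CPM in 2SA and 46.8 to 65.9 CPM in WT in glucose, and to 60.5 to 69.7 CPM in 2SA and 52.9 to 59.4 CPM in WT in sucrose. Most of each alpha sum was SAG1, at 42.5 to 65.7 CPM a library, while STE3 reached at most 4.67 CPM. The part of the cell type markers in the sporulation gene values was not tested. In bulk RNA, fewer cells that express a gene and less RNA per cell cannot be told apart.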

How the data were processed

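The authors deposited raw counts per feature, whole numbers with no normalization, for 12 libraries of total RNA (acid phenol extraction and a KAPA kit, per the labels' protocols). Reads were aligned with Bowtie 0.12.2 to sacCer3, per the submitters' processing notes. How reads were counted, on which strand and with multiple matches was not given in the sources used here, so reads of overlapping or antisense genes cannot be told apart. Groups and replicate numbers come from sample titles. The series' design text calls the replicates biological, and the labels do not say how cultures were started, so p-values measure the spread between these libraries. The lowest chi-square per degree of freedom between replicates was 87.4, so no library was counted as a copy of another.

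The test was the edgeR 4.0.16 quasi-likelihood F-test (R 4.3.3) on all 12 libraries, with group means as coefficients, TMM scaling (factors 0.922 to 1.11), the default filter (minimum count 10), a common dispersion of 0.0719 on 8 residual degrees of freedom and Benjamini-Hochberg adjustment over 6085 features. All adjusted p in the text are of this kind unless DESeq2 (version 1.42.0) is named. Standard errors are the absolute log2 fold change over the square root of F. The thresholds are those of the series' design text. A number was read as a pair if, for each number, deviations from the group means had r over 0.1. Between 2SA and WT r was 0.654, 0.610 and 0.545 in glucose and 0.603, 0.847 and 0.799 in sucrose. This pairing comes from the data, and no label explains it. The block within carbon source has a common dispersion of 0.0134 on 4 residual degrees of freedom. Between sugars r ran between -0.195 and 0.479, so the numbers were not taken as pairs there.

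Members and lists were chosen with earlier results of these data known. Library values are printed for NDT80, members called in any contrast with or without a block, the 6 highest per length, members with unadjusted p under 0.05 in both genotype comparisons and 3 pairs of paralogs, and ranges for members under 1 CPM. STE3 and the BNA genes were singled out after their values were seen. Coordinates are sacCer3, and R64 has the same start for 99.9% of 6047 features with a matching locus tag and for all 42 members. Near copies were sought with BLAST+ 2.17.0 (at least 80% identity over at least 100 bp). Alternatives were other scalings, filters, DESeq2, replicate blocks, only the 6 libraries compared, no fold threshold, and leaving out libraries. The fitting was tested on simulated data.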

Additional observations from a re-analysis of the deposited data

How the results depend on the processing

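Alternatives that leave out all libraries numbered 1, and blocks combined with leaving out a number, were chosen after seeing the data. Calls of 2SA against WT in glucose over all features (2 higher and 3 lower, 0 members) were 5 and 25 with DESeq2 (1 member), 7 lower with the replicate block (1 member), 7 and 22 with the replicate block within carbon source (1 member), 0 and 0 without libraries numbered 1, 11 and 54 with that block and without those numbered 1 (1 member), 1 and 0 without those numbered 2, 8 lower with the block and without those numbered 2, and 1 and 0 with only the 6 libraries. In sucrose (1 higher and 3 lower, 0 members) they were 10 and 36 with DESeq2 (2 members), 9 lower with the replicate block (1 member), 14 and 98 with the block within carbon source (2 members), 0 and 1 without those numbered 1, 24 and 126 with the block and without those numbered 1 (5 members), 0 and 0 without those numbered 2, 2 and 13 with the block and without those numbered 2, and 0 and 0 with 6 libraries. Calls of sucrose against glucose in 2SA (98 and 17) were 217 and 127 with DESeq2, 214 and 133 with the replicate block, 4 and 1 without those numbered 1, 0 and 0 without those numbered 2, and 4 and 1 with 6 libraries. In WT (177 and 32, 1 member lower) they were 344 and 199 with DESeq2, 363 and 273 with the replicate block, 2 and 0 without those numbered 1, 0 and 0 without those numbered 2, and 9 and 1 with 6 libraries. That member, SPO74, was called with the replicate block (edgeR adjusted p = 0.0269), and 0 members were called without a filter (0.0570), with 6 libraries, without those numbered 1 (0.337) or 2 (0.274), and with DESeq2, which gave SPO74 no adjusted p. The interaction had 1 feature higher with the block and without those numbered 1. Leaving out single libraries gave 1 to 2 higher and 0 to 4 lower in glucose, 1 to 2 and 0 to 3 in sucrose, 2 to 121 and 1 to 36 in 2SA, and 10 to 256 and 1 to 170 in WT (0 to 1 member lower). The median member ran between -0.57 and -0.23 in glucose and between -0.62 and -0.38 in sucrose. Directions reversed for LOH1 in glucose (0.12 without those numbered 1, 0.10 with the block as well, 0.30 without the WT library numbered 1), for CDA1 in glucose (0.54 without that library) and for OSW2 and PES4 in sucrose (0.28 and 0.16 without the WT library numbered 1). Without those numbered 1, 9 of 40 members changed direction in glucose, LOH1 with GAS2 (0.17), OSW1 (0.18), SPO21 (0.02), SPO77 (0.18), SPR28 (0.90), SPR6 (-0.11), SPS4 (0.22) and ADY3 (0.16), and 2 in sucrose, DON1 (0.07) and SPS100 (-0.09). Over all single libraries left out, values ran between -1.68 and 0.30 for LOH1, -1.79 and 0.54 for CDA1, -2.03 and 0.28 for OSW2 and -2.88 and 0.16 for PES4. Apart from the calls named, neither block changed the call of a member. The cause of these changes was not tested. For members with few counts, counting error alone limits the precision of a fold change.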

Other observations

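Several genes outside the sporulation program were high in the same WT libraries numbered 1, and they are named here after their values were seen. BNA2, which starts NAD synthesis from tryptophan, had 25.8 CPM in the WT glucose library numbered 1 and 40.3 CPM in the WT sucrose library numbered 1, against 3.57 to 5.35 CPM in the other WT libraries and 1.44 to 4.23 CPM in 2SA libraries. BNA5, a later gene of that pathway, had 85.9 and 90.9 CPM in those 2 libraries, against 34.3 to 46.0 CPM in the other WT libraries and 22.2 to 27.0 CPM in 2SA libraries. Among all features the largest gaps between library 1 and the other WT libraries were those of SNO3, BNA2 and COS12, at 3.50, 2.76 and 2.75 on the log2 scale for the smaller of the gaps in the 2 sugars. The largest gap of a sporulation gene was that of IRC18, at 1.75.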
